A study of Mus musculus with 6 samples.

Results

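The 10 genes described here belong to the synthesis of serine and asparagine and to the stress response run by the transcription factor ATF4. They were taken by symbol: Atf4, Asns, Phgdh, Psat1, Psph, Shmt2, Mthfd2, Ddit3, Trib3 and Chac1, 10 of 19938 genes measured, each on the single probe set that carries its symbol alone. All 10 lay above the brightness threshold of log2 4.72 and were among the 13965 genes tested. RNA came from spleen cells of mice 10 days after an allogeneic bone marrow transplantation, isolated with magnetic beads against CD11b and called MDSCs (myeloid-derived suppressor cells, immature myeloid cells that can restrain T cells) in the labels. All 6 recipients were lethally irradiated B6D2F1/J mice given T-cell-depleted marrow of B6 donors. Either PBS (3 mice) or rapamycin at 1.5 mg/kg (3 mice) was injected into the peritoneum on alternate days until day 10. The labels mention grafts with and without added B6 spleen cells and do not say which mice received them, and they give no age or sex. Each mouse was read on 1 array, and the number of arrays limits the precision. The sort marker Itgam, which encodes CD11b, stood at 12.39 ± 0.08 with PBS and 12.27 ± 0.04 with rapamycin (log2 expression, mean ± SD, n = 3 each).

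Rapamycin inhibits the kinase complex mTORC1. When amino acids run short or unfolded proteins accumulate, kinases phosphorylate the initiation factor eIF2, which lowers protein synthesis in general and raises translation of the Atf4 mRNA; mTORC1 raises ATF4 protein as well, by a route that does not need eIF2 phosphorylation. ATF4 binds DNA with C/EBP partners at sites known as C/EBP-ATF response elements and activates genes that make, import and charge amino acids, and, under lasting stress, genes such as Ddit3, Trib3 and Chac1. Arrays read RNA, so the amount of ATF4 protein was not measured here.

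Of the 6 enzymes of amino acid and folate metabolism 3 fell, and of the 3 stress genes 0 were called; the difference between these sets was not tested. Asns, the asparagine synthetase, was 2.01-fold lower with rapamycin (95% interval 1.66 to 2.43), Psat1 of serine synthesis 1.25-fold lower and Shmt2 of mitochondrial folate metabolism 1.18-fold lower. Atf4 itself was 1.16-fold higher. The other 6 genes, among them the stress genes Ddit3, Trib3 and Chac1, did not pass the test. By limma's adjusted p under 0.05, 3 of the 10 fell and 1 rose, where over all 13965 genes tested 6.92% were called lower, 4.42% higher and 11.3% in either direction. The median log2 difference was -0.06 over the 10 genes and -0.02 over all genes tested. The 3 arrays of one group all lay on one side of the other 3 for 4 of the 10 genes (3 lower, 1 higher), against 32.0% of all genes tested (19.4% lower, 12.6% higher).

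**Figure D1:**
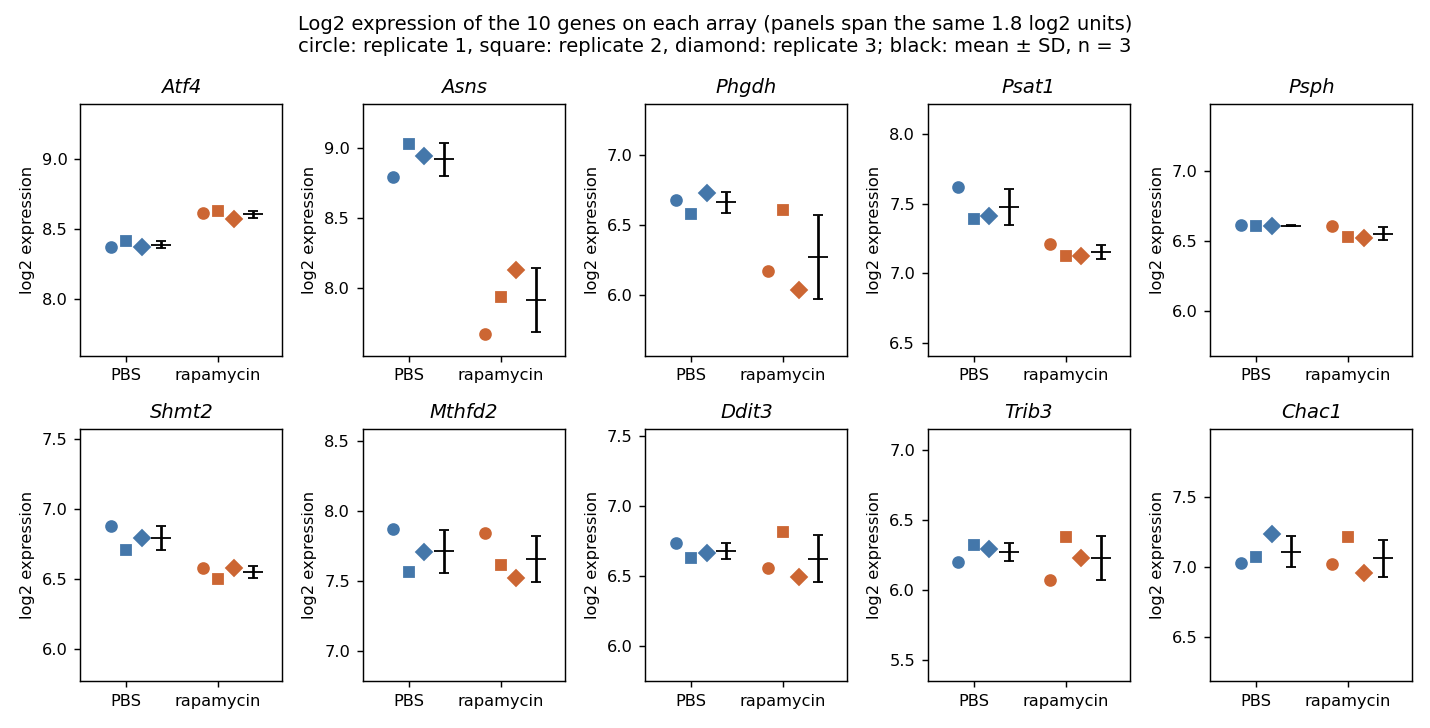
Log2 expression of the 10 genes (vertical axes, each panel spanning the same range) on each of the 6 arrays, PBS in blue and rapamycin in orange, with the mean ± SD of 3 mice in black. The 3 rapamycin arrays lie below all PBS arrays for Asns, Psat1 and Shmt2 and above them for Atf4; in the other panels the groups overlap or touch.

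Atf4 encodes the activator on which the rest of the group converges. Its log2 expression was 8.37, 8.42 and 8.38 on the PBS arrays (replicates 1, 2 and 3) and 8.62, 8.63 and 8.58 on the rapamycin arrays. The values of each group lay within 0.05 of each other, and the lowest rapamycin array was 0.16 above the highest PBS array. The log2 difference was 0.22 ± 0.04 (SE), with limma's adjusted p of 0.0230 (95% interval 0.12 to 0.32). In 5 of the 6 fits with 1 array left out the adjusted p was above the threshold, from 0.0619 without PBS replicate 1 to 0.0779 without rapamycin replicate 1, at differences from 0.21 to 0.23; it was 0.0332 without rapamycin replicate 3.

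Asns converts aspartate into asparagine with glutamine as the nitrogen donor. Its log2 expression was 8.79, 9.02 and 8.94 with PBS and 7.67, 7.94 and 8.13 with rapamycin. The highest rapamycin array lay 0.66 below the lowest PBS array, and the rapamycin mice differed among themselves by 0.46. The log2 difference was -1.01 ± 0.12 (SE), with limma's adjusted p of 0.00739, and 9 of the 13965 genes tested had a more negative difference. The call of Asns held when any array other than PBS replicate 2 was dropped; without that array the difference was -0.95 with an adjusted p of 0.0504. Of the 13964 other genes, those with the array profile closest to that of Asns, by the mean absolute difference of values centred on each gene's mean over the 6 arrays, were Klrb1f (0.063), Manea (0.072), Hgf (0.078), Zmpste24 (0.083) and Hexim1 (0.092). Their log2 differences ran from -1.08 (Zmpste24) to -0.87 (Hexim1). With 6 arrays this measure mainly picks genes with a like difference between the groups, and shared regulation was not tested.

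Promoter sequences bear on which of these genes carry a site of the type ATF4 binds, so windows of RefSeq (GRCm38.p6, from 250 bases before to 50 after each annotated start) were searched for the 8 letters TGATGNAA on both strands. All 10 genes had a window, and 3 of them held a match: Asns 23 bases before the start, Chac1 193 bases before it and Trib3 14 bases after it. Of 32851 windows of that length, 3.97% held one, and of the 11060 genes tested that have a window, 311 had a match. The stretches are printed 5′ to 3′ along the gene, with the match in capitals; those of Psat1, Shmt2 and Atf4, which changed in level, held no match, which says only that these letters are not in the window. The Asns stretch lies at chr6:7693210-7693359 on the minus strand, Chac1 at chr2:119350992-119351141 on the plus strand and the 30-base site of Trib3 at chr2:152344028-152344057 on the minus strand. Those of Psat1 (chr19:15925060-15925209, the first of 2 starts), Shmt2 (chr10:127522445-127522594) and Atf4 (chr15:80255034-80255183) are on the minus, minus and plus strand.
Asns: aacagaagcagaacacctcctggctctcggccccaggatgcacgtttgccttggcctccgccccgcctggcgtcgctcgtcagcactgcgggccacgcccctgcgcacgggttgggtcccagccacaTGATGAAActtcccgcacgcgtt
Chac1: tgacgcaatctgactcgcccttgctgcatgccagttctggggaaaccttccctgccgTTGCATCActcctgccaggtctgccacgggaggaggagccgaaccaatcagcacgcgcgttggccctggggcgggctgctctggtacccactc
Trib3: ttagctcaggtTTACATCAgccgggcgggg
Psat1: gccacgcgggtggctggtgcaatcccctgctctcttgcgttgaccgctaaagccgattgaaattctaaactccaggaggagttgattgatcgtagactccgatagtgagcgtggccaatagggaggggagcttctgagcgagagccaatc
Shmt2: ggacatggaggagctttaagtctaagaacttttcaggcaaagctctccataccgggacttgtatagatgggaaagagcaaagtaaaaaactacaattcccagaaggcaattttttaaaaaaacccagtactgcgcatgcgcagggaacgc
Atf4: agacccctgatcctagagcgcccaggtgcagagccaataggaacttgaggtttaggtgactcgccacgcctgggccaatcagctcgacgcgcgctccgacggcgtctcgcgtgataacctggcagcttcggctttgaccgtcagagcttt

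The gene of the 3 with a match that fell was Asns, and the levels of Chac1 and Trib3 overlapped between the groups. Over the 311 genes tested with a match in a window, 7.72% were called lower and 8.36% higher, where over the 11060 genes tested that have a window 7.13% were lower and 4.2% higher. Their median log2 difference was -0.02 in both. A second motif, the ER stress response element (searched by its 19-base consensus on both strands), was in no window of the 10 genes, so that it overlaps no match printed here, and in 0.119% of all windows.

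In serine synthesis, Phgdh makes the first step from the glycolytic intermediate 3-phosphoglycerate, Psat1 transfers the amino group and Psph removes the phosphate. Psat1 had log2 expression of 7.62, 7.39 and 7.41 with PBS and 7.21, 7.13 and 7.13 with rapamycin, so that every rapamycin array lay below every PBS array. Its log2 difference was -0.32 ± 0.07 (SE), with limma's adjusted p of 0.0331. The call was lost with any 1 array left out, at differences from -0.36 to -0.25 and adjusted p from 0.0536 (without PBS replicate 1) to 0.0900 (without rapamycin replicate 1).

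Phgdh had log2 expression of 6.68, 6.58 and 6.73 with PBS and 6.17, 6.61 and 6.03 with rapamycin. Rapamycin replicate 2 lay within the PBS range, and the other 2 rapamycin arrays were lower than any PBS array. The log2 difference was -0.39 ± 0.14 (SE, 95% interval -0.72 to -0.07), with limma's adjusted p of 0.113. Without rapamycin replicate 2 the difference was -0.56 and the adjusted p 0.0209. A second probe set is shared by Phgdh and the predicted gene Gm6756 and gave 6.89 ± 0.06 with PBS and 6.75 ± 0.12 with rapamycin (mean ± SD, n = 3 each). Phgdh has a pseudogene, so signal from a near-identical copy cannot be told apart on the array.

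Psph stayed within a narrow range, at 6.61 on all 3 PBS arrays and at 6.61, 6.53 and 6.525 with rapamycin. Its log2 difference was -0.06 ± 0.04 (SE), with an interval from -0.16 to 0.05 and limma's adjusted p of 0.448. The deposited value was the same to the last digit on PBS replicates 2 and 3 and rapamycin replicate 1. So it was for Psat1 on rapamycin replicates 2 and 3 and for Shmt2 on rapamycin replicates 1 and 3. Of the serine pathway's 3 enzymes, 1 of 3 passed the test.

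Shmt2 and Mthfd2 work in mitochondria, where Shmt2 turns serine into glycine and passes its carbon to folate, and Mthfd2 oxidises that folate. Shmt2 had log2 expression of 6.88, 6.71 and 6.79 with PBS and 6.57, 6.50 and 6.57 with rapamycin, with no overlap between the groups. The log2 difference was -0.24 ± 0.06 (SE), with limma's adjusted p of 0.0384. Any 1 array left out ended this call, with adjusted p from 0.0654 to 0.107 and differences from -0.28 to -0.20. Mthfd2 ran from 7.56 to 7.87 with PBS and from 7.52 to 7.84 with rapamycin, ranges that nearly coincide. Its difference of -0.06 ± 0.10 (interval -0.30 to 0.19) had limma's adjusted p of 0.767, and it was above 0 in 2 of the 6 fits with 1 array left out.

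**Figure D2:**
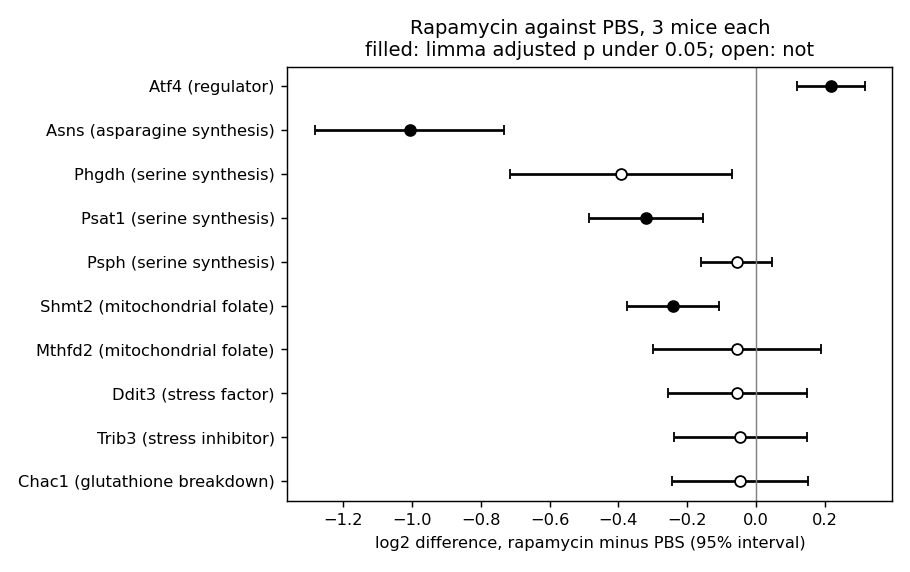
Log2 difference of rapamycin minus PBS for each of the 10 genes (horizontal axis) with limma's 95% interval; filled points passed an adjusted p under 0.05. Asns stands at -1.01, Psat1 at -0.32 and Shmt2 at -0.24, Atf4 lies above 0, and the intervals of Psph, Mthfd2, Ddit3, Trib3 and Chac1 include 0.

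Ddit3 encodes CHOP, a C/EBP-family factor that drives cell death genes under lasting stress. Its log2 expression was 6.73, 6.63 and 6.66 with PBS and 6.56, 6.81 and 6.49 with rapamycin. Rapamycin replicate 2 was the highest of all 6 arrays, and the other rapamycin arrays were the lowest of the 6. The difference was -0.05 ± 0.09 (SE, interval -0.26 to 0.15), with limma's adjusted p of 0.721.

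Trib3, a pseudokinase that restrains ATF4 and CHOP activity, ran from 6.20 to 6.33 with PBS and from 6.07 to 6.38 with rapamycin, and the difference was -0.05 ± 0.08 (interval -0.24 to 0.15). Chac1, an enzyme that breaks down glutathione, ran from 7.02 to 7.23 and from 6.95 to 7.21, and the difference was -0.05 ± 0.08 (interval -0.24 to 0.15). Limma's adjusted p was 0.756 for Trib3 and 0.749 for Chac1. Among these 3 stress genes 0 passed limma's test and 0 had an unadjusted p under 0.05; each interval leaves room for a change of at most 0.26 on the log2 scale. Rapamycin replicate 2 was the highest rapamycin array for all 3, for Phgdh and for Atf4, 5 of the 10 genes. Without it the differences were -0.15 for Ddit3, -0.12 for Trib3 and -0.12 for Chac1, with limma's adjusted p of 0.161, 0.326 and 0.354.

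**Figure D3:**
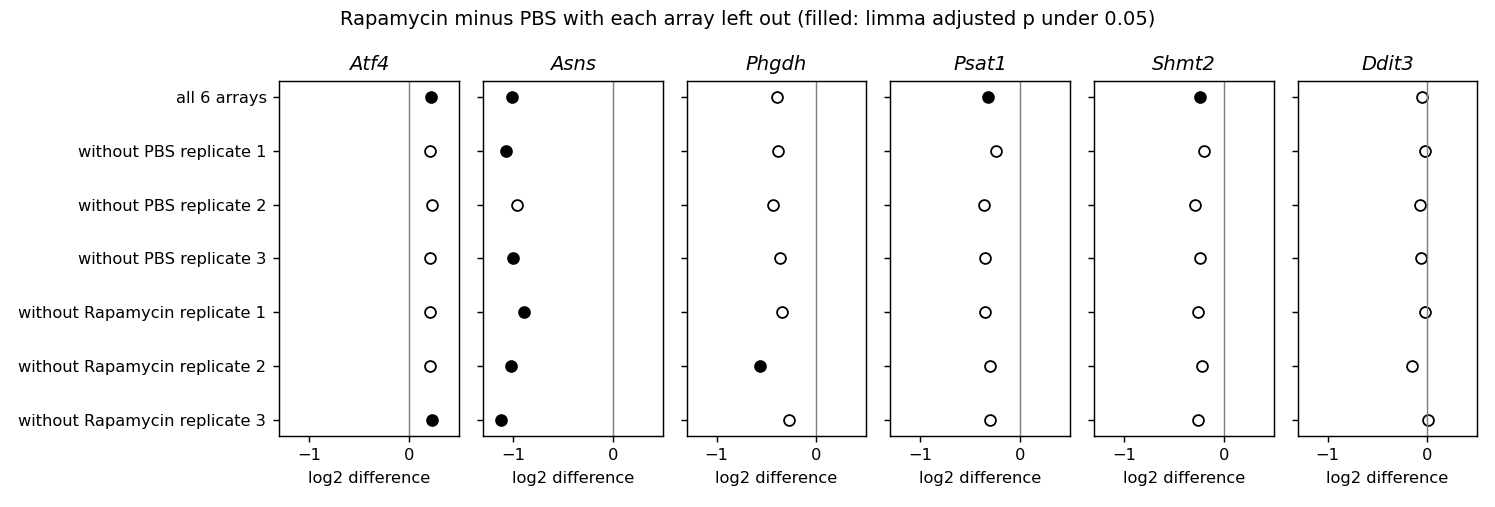
Log2 difference of rapamycin minus PBS (horizontal axes) for 6 of the genes in the fit of all 6 arrays and with each array left out in turn; filled points passed limma's adjusted p under 0.05. Asns stays between -1.11 and -0.89, the Phgdh difference is most negative (-0.56) without rapamycin replicate 2, and Psat1 and Shmt2 pass in the fit of all 6 arrays and in none of the others.

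Other factors and targets of the response moved in both directions. In a list of 22 ATF4 and CHOP partners and targets outside the 10 genes, 21 were measured and 20 tested. Of those tested 3 rose, 2 fell and the other 15 were not called, with a median log2 difference of -0.07. Over all genes tested 4.42% were called higher and 6.92% lower, with a median of -0.02. These shares are to be set beside this list and the later ones. Atf3, a stress-induced factor of the ATF family, had log2 expression of 7.51, 7.63 and 7.45 with PBS and 8.09, 8.18 and 7.97 with rapamycin. It rose by 0.55 ± 0.07 (SE, limma adjusted p 0.00770) and kept its call with any 1 array left out. Cebpg, a C/EBP protein that pairs with ATF4, rose by 0.36 ± 0.06 from 7.52 ± 0.07 (mean ± SD, n = 3; limma adjusted p 0.0177), and the stress-induced Nupr1, named here after its value was seen, by 0.27 ± 0.07 (limma adjusted p 0.0443), a call lost with any 1 array left out (0.0536 to 0.145).

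Pck2, the mitochondrial enzyme that turns oxaloacetate into phosphoenolpyruvate, had log2 expression of 6.97, 7.11 and 7.13 with PBS and 6.72, 6.55 and 6.69 with rapamycin. It fell by 0.42 ± 0.07 (limma adjusted p 0.0134). Ero1a, an oxidase that forms disulfides in the endoplasmic reticulum, fell by 0.40 ± 0.09 from 10.70 ± 0.10 (mean ± SD, n = 3; limma adjusted p 0.0376). Of the 5 calls in this list, that of Atf3 alone remained without PBS replicate 2 or PBS replicate 3, and those of Atf3 and Pck2 without PBS replicate 1 or rapamycin replicate 1. Cebpg held besides without rapamycin replicate 2 or 3, and Ero1a without rapamycin replicate 2. Of the 19 tested genes of this list with a promoter window, 6 held the TGATGNAA match: Atf3, Nupr1, Fgf21, Pck2, Herpud1 and Jdp2. Of all 11060 genes tested with a window 311 held it, and this list was drawn up from ATF4 and CHOP partners and targets. In lists described below, the match was in 1 of 5 transporters with a window (Slc7a11). It was in 4 of 11 aminoacyl-tRNA synthetases (Gars, Iars, Tars and Yars) and in 0 of 16 genes of the unfolded protein response.

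Genes for the import and use of amino acids included members that rose beside the enzymes that fell. Of 9 transporters known as ATF4 targets, 7 were tested, 2 rose and 0 fell, with a median of 0.02. Slc7a11, the cystine and glutamate exchanger, had log2 expression of 6.27, 6.07 and 5.99 with PBS and 6.97, 6.77 and 6.82 with rapamycin, a rise of 0.74 ± 0.09 (SE, limma adjusted p 0.00726). It was lost without PBS replicate 2, at an adjusted p of 0.0504. Slc38a2, a carrier of small neutral amino acids, rose by 0.32 ± 0.07 (limma adjusted p 0.0264); of the fits lacking 1 array it passed in that without rapamycin replicate 2.

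Of 18 measured cytosolic aminoacyl-tRNA synthetases, which charge tRNAs with amino acids, Iars rose by 0.45 ± 0.11 (limma adjusted p 0.0405) and 17 did not pass the test (median -0.05). Iars passed again when PBS replicate 1 was dropped and in no other fit lacking 1 array. Nars, which charges tRNA with asparagine and is named here after its value was seen, was 9.13 ± 0.05 with PBS and 8.90 ± 0.09 with rapamycin (limma adjusted p 0.0562).

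**Figure D4:**
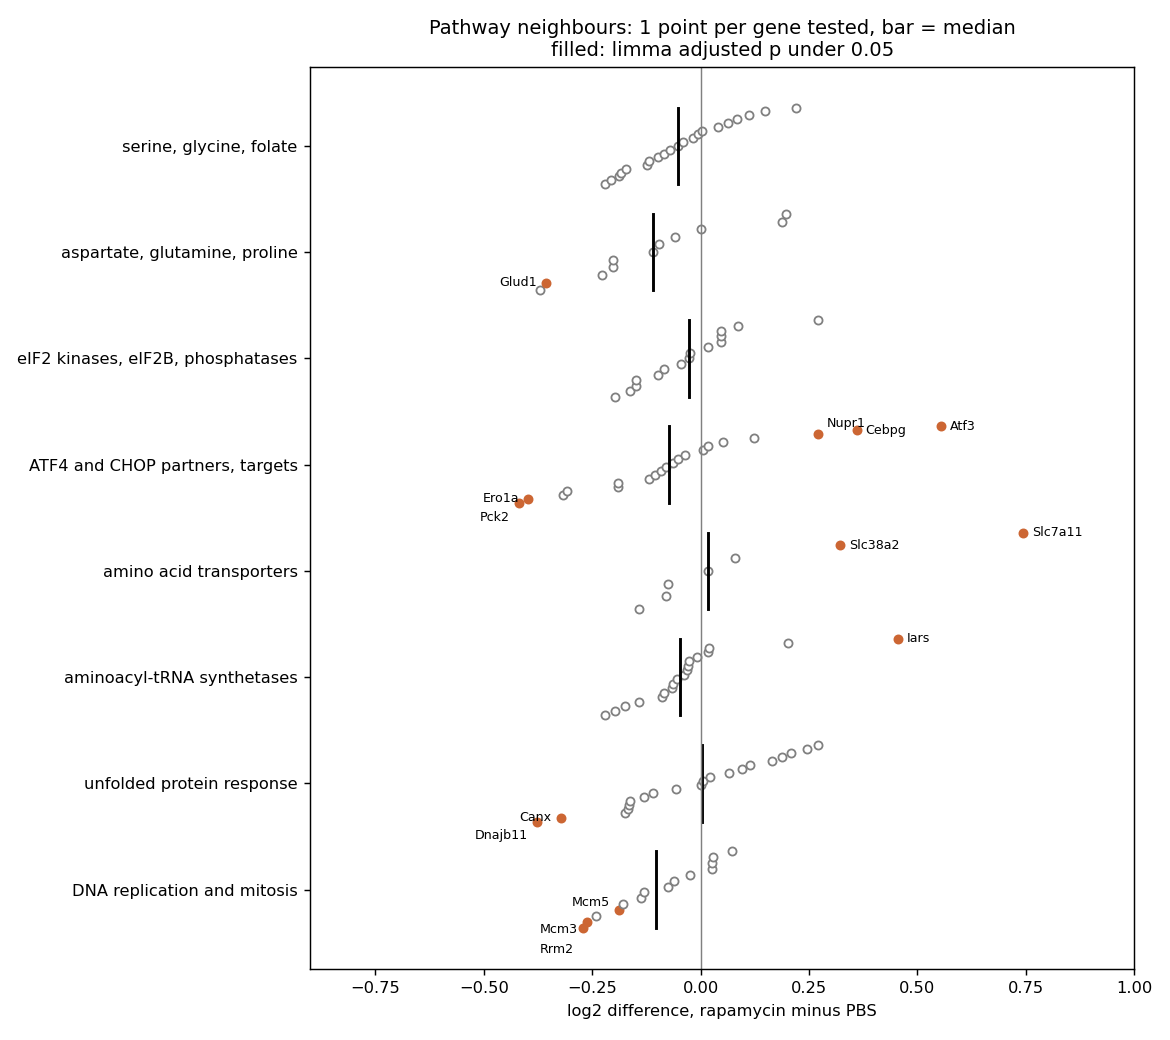
Log2 difference of rapamycin minus PBS (horizontal axis) for each tested gene of 8 pathway lists, 1 point per gene, with filled points for limma's adjusted p under 0.05 and a bar at each list's median. Slc7a11 (0.74) and Atf3 (0.55) lie farthest to the right and Pck2 (-0.42) farthest to the left; the medians lie between -0.11 and 0.02.

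The neighbouring metabolic genes gave few calls. Of 33 other genes of serine, glycine and folate metabolism, 26 were measured and 21 tested, and limma called 0 of them (median -0.05); at an unadjusted p under 0.05 there were 1 higher and 5 lower. The folate-releasing hydrolase Ggh differed by -0.18 ± 0.05 (SE, limma adjusted p 0.0648) and Dld, a subunit shared by the glycine cleavage system and several mitochondrial dehydrogenases, by -0.19 ± 0.06 (0.0801). Of 11 tested genes of aspartate, glutamine, glutamate and proline metabolism, the glutamate dehydrogenase Glud1 fell by 0.36 ± 0.06 (limma adjusted p 0.0145) and 10 did not pass the test (median -0.11). Dropping PBS replicate 2, PBS replicate 3 or rapamycin replicate 1 ended the call of Glud1 (adjusted p 0.0600 to 0.0707).

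Upstream of Atf4, the list held genes for eIF2 kinases, the exchange factor eIF2B, eIF2 phosphatase subunits and an eIF2 subunit, with Dnajc3, Nck1, Gcn1 and Impact. Of its 16 genes 15 were tested and limma called 0 (median -0.03). At an unadjusted p under 0.05 there were 1 higher and 3 lower. The interferon-induced kinase Eif2ak2 differed by 0.27 ± 0.07 (limma adjusted p 0.0588) and the kinase inhibitor Dnajc3 by -0.20 ± 0.06 (0.0678). Of 20 genes of the ATF6 and XBP1 arms of the unfolded protein response, 2 fell and 18 did not pass the test (median 0.0038): the lectin chaperone Canx fell by 0.32 ± 0.05 (limma adjusted p 0.0112) and the co-chaperone Dnajb11 by 0.38 ± 0.07 (limma adjusted p 0.0226). Neither was called without PBS replicate 2; Canx was also lost without PBS replicate 3 (adjusted p 0.0504), and Dnajb11 held without PBS replicate 3 or rapamycin replicate 3 and in no other such fit. The ER stress response element was in the windows of 7 of the 16 genes of that list that have a window. Of the 11060 genes tested with a window, 18 held it, and this list was drawn up from genes of the stress response the element is named for.

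Some genes of growth and of other cell types were called in the same comparison, and their part in the changes of Asns, Psat1, Shmt2 and Atf4 was not tested. Of 14 tested genes of DNA replication and mitosis 3 fell (Rrm2, Mcm3 and Mcm5, by 0.27, 0.26 and 0.19; median -0.10 over the list), and 0 of the list when any array other than rapamycin replicate 3 was dropped. Without that array 2 of the list were lower, Rrm2 (adjusted p 0.0249 with limma) being the 1 of the 3 that held. The summed linear signal of these 14 ran from 11162 to 11539 with PBS and from 10543 to 11282 with rapamycin. Of 7 tested T cell genes Cd3g and Cd8a fell, by 0.39 and 0.27, and 3 measured ones (Cd3d, Cd28 and Trat1) were under the brightness threshold; their summed signal was 335 to 368 with PBS and 268 to 314 with rapamycin. Of 3 tested B cell genes Cd79b fell by 0.32 (summed signal 145 to 151 and 127 to 141), with Cd79a, Ms4a1, Pax5 and Ebf1 under the threshold, and of 4 NK cell genes Gzmb fell by 0.76 (245 to 277 and 201 to 253), with Ncr1, Klrb1c and Gzma under it. The others tested were not called and are named here after their values were seen. Among B cell genes Blk differed by 0.14 ± 0.07 (SE) and Cd22 by -0.08 ± 0.08. Among NK cell genes Klrk1 differed by 0.52 ± 0.18, Eomes by 0.04 ± 0.04 and Prf1 by -0.36 ± 0.14. In bulk RNA, fewer cells of a type and less RNA per cell cannot be told apart.

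Monocyte and macrophage genes had a summed signal of 7321 to 9070 with PBS and 9909 to 11284 with rapamycin. Of 9 tested, Cd68 (0.83) and Ms4a6c (0.38) rose, Ccr2 fell by 0.34 and 6 were not called. Without Cd68 the sums of the groups overlap. Log2 expression of Cd68 was 10.69 ± 0.19 with PBS and 11.52 ± 0.05 with rapamycin (mean ± SD, n = 3 each). The 11 neutrophil genes gave 0 calls by limma and 0 at an unadjusted p under 0.05, with sums of 76483 to 81151 and 72304 to 79131; the largest statistics were those of Ly6g (-0.31 ± 0.14) and Camp (-0.11 ± 0.06). Of 3 tested eosinophil genes Alox15 rose by 2.47, Siglecf (0.03 ± 0.04) and Ccr3 (0.06 ± 0.07) were not called, and Epx, Prg2 and Il5ra were under the threshold. Their sums, 311 to 450 and 950 to 1391, differ mainly through Alox15. Of 6 tested erythroid genes Slc4a1 rose by 0.64, with Rhag under the threshold (sums of 261 to 273 and 300 to 334). Of these calls, those of Cd8a and Ccr2 were lost with any 1 array dropped, Cd3g held without PBS replicate 1 alone, Ms4a6c without rapamycin replicate 2 alone, and Cd79b without rapamycin replicate 2 or 3. Gzmb was lost without PBS replicate 2 or 3 and Cd68 and Slc4a1 without PBS replicate 2, and Alox15 held in every such fit.

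In the other lists limma called 0 genes. The 6 granulocyte progenitor genes had 1 higher and 1 lower at an unadjusted p under 0.05 (Ms4a3 0.16 ± 0.05 and Mpo -0.40 ± 0.15), and their sums were 5665 to 5995 and 5231 to 6779. The 5 plasma cell genes had 1 higher (Prdm1, 0.26 ± 0.08, beside Derl3 at 0.08 ± 0.06), with Jchain under the threshold and sums of 191 to 199 and 199 to 210. The 4 basophil and mast cell genes had 2 lower (Mcpt8 -0.70 ± 0.20 and Cpa3 -0.56 ± 0.16), with sums of 2519 to 2616 and 2172 to 3257. Most of these sums came from Hdc (mean ± SD of 11.23 ± 0.04 with PBS and 11.39 ± 0.36 with rapamycin). The mean log2 expression of the 4 genes ran from 7.14 to 7.27 with PBS and from 6.84 to 7.02 with rapamycin. The 2 megakaryocyte genes, Gp9 and Itga2b, had 0 (Gp9 at -0.03 ± 0.05 and Itga2b at -0.0019 ± 0.05), with Pf4 and Ppbp under the threshold and sums of 76.4 to 80.3 and 77.5 to 79.4.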

How the data were processed

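Total RNA of CD11b-selected spleen cells was read on 1 whole-transcript array per mouse, 3 given PBS and 3 rapamycin, according to the labels. Values deposited by the authors are log2 expression per probe set, produced by RMA in Affymetrix Expression Console per the submitters' processing notes (versions and genome build: not given in the sources used here). This method makes the arrays' distributions nearly equal, so a shift of most genes one way would be removed. The values ran from 2.71 to 14.2 with array medians of 5.42 to 5.46, and no pair of arrays shared more than 6.99% of values exactly. The labels call the mice biological replicates. Hybridisation and scan dates were not used here.

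GEO's platform annotation named the probe sets (21789 of 35556 with 1 symbol, 1621 with several and 12146 unnamed here). Per gene the probe set with the highest mean was taken, and genes dimmer than log2 4.72, the 30th percentile of all probe sets with a name, were not tested. Rapamycin was set against PBS in limma 3.58.1 under R 4.3.3 (lmFit, eBayes, 2-sided, Benjamini-Hochberg over 13965 genes). A call is an adjusted p under 0.05, and SE are moderated. The fit was also run on simulated data with independent noise, which checks the code and not the calls made here. Of 240 list entries 215 were matched by symbol or a synonym and 25 were not analysed here. Lists were described by counts and medians, with no set test. Summed signals are sums of 2 to the power of the log2 values.

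The 10 genes, the lists and the tests were chosen with earlier results of these data known. The text names the 10 genes, up to 4 called genes per list by moderated statistic (up to 2 where none was called) and the 5 genes nearest to Asns. Alternatives were other filters, normalizations, probe set rules, variance models, array weights, a replicate block and each array left out. Alignment of the medians of the tested genes was added after seeing the data. Promoters are RefSeq's. Python 3.11.15 with matplotlib 3.10.9 drew the figures.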

Additional observations from a re-analysis of the deposited data

How the results depend on the processing

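Asns, Psat1, Shmt2 and Atf4 kept their direction and their call in all 9 planned settings that keep the 6 arrays. They also did so with the medians of the tested genes aligned, a setting chosen after seeing the data. Each has 1 probe set of its own, so other filters, probe set rules, variance models and the replicate block could not alter its difference. Those settings could change the adjusted p only. With 1 array left out, the genes of the 10 called lower numbered 0 to 2 (3 with all arrays) and those called higher 0 to 1, in fits with fewer samples that also called 52 to 561 genes higher and 61 to 775 lower over all genes, where all arrays gave 617 and 967. Without PBS replicate 2 limma called 0 of the 10, and 5 had an unadjusted p under 0.05. With the medians of the tested genes aligned the overall calls split into 875 higher and 707 lower, so that 44.7% were lower in place of 61.0%. Log2 differences near 0 changed sign with 1 array left out: Mthfd2 ran from -0.15 to 0.023 (above 0 without PBS replicate 1 or rapamycin replicate 3), Ddit3 from -0.15 to 0.0097 (without rapamycin replicate 3), Trib3 from -0.12 to 0.033 (without rapamycin replicate 1) and Chac1 from -0.12 to 0.015 (without PBS replicate 3, and 0.0057 without rapamycin replicate 3). The cause was not tested.

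List counts moved by 1 to 2 genes in the settings that keep all 6 arrays. With the array medians aligned, 1 gene of serine, glycine and folate metabolism was lower, 2 of aspartate and glutamine metabolism, 2 of the eIF2 genes and 1 synthetase; after quantile normalization again the last 3 were 3, 1 and 1. With probe sets of a gene averaged there were 1 folate gene and 1 eIF2 gene lower, 1 replication gene higher and 0 synthetases higher (0 also with no filter, where 1 of the ATF4 targets was lower). With the replicate block, 2 aspartate and glutamine genes were lower, and 1 eIF2 gene and 1 unfolded protein response gene higher. The 50th percentile filter and the trend and robust model gave 1 eIF2 gene and 1 unfolded protein response gene higher and 1 synthetase lower; array weights gave 1, 2 and 1, and every probe set on its own 1 unfolded protein response gene higher. With the medians of the tested genes aligned there were 1 eIF2 gene and 1 unfolded protein response gene higher and 1 replication gene lower. With no filter or averaged probe sets, 2 ATF4 targets in place of 3 were higher. Replication genes called lower numbered 2 in place of 3 in those settings and with the replicate block. After quantile normalization again or with array medians aligned, 3 unfolded protein response genes in place of 2 were lower. With array medians aligned, 3 ATF4 targets in place of 2 were lower. With 1 array left out, higher and lower counts ran from 0 to 1 and 0 to 1 for folate genes, 0 to 2 lower for aspartate and glutamine genes, 0 to 1 higher for eIF2 genes, 1 to 2 and 0 to 2 for ATF4 targets, 0 to 2 higher for transporters, 0 to 1 and 0 to 1 for synthetases, 0 to 2 and 0 to 3 for the unfolded protein response and 0 to 2 lower for replication. Deviations of same-numbered arrays correlated at 0.26, 0.01 and 0.05 across genes, and those of differently numbered arrays at -0.19 to 0.14. Whether replicate numbers pair the mice was not tested. The replicate block gave 768 genes higher and 923 lower and changed no call among the 10.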
